A study of Mus musculus with 36 samples.

Results

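Small nuclear RNA (snRNA) genes are short genes whose products form the core of the RNA splicing machinery and of related RNA-processing particles. The 7 genes described here are Rnu2-10, Rnu5g and Rnu1b1, for the U2, U5 and U1 RNAs of the major spliceosome, Rnu11 and Rnu12, for the U11 and U12 RNAs of the minor spliceosome, Rnu7, for the U7 RNA that directs the 3′ end processing of histone mRNAs, and Rnu3b1, for U3, a nucleolar RNA of ribosomal RNA processing that RefSeq lists among its snRNA genes. They were chosen by name, with earlier results of the same lists known, from 1004 genes annotated as snRNA and 49997 annotated genes in all, and each was looked up at its RefSeq position (mm10, GRCm38.p6).

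The study profiled the TATA-binding protein TBP on chromatin of mouse embryonic stem (ES) cells by CUT&RUN, in which a nuclease brought in by the antibody releases the DNA next to the protein. RT7 4-OHT cells are R26CreERT2/+;Taf7flox/flox cells given 4-hydroxytamoxifen (4-OHT) from day 1 to day 3, which induces deletion of Taf7, and RT7 EtOH cells are the same line given ethanol. RT10 4-OHT and RT10 EtOH cells are the corresponding pair with the genotype R26CreERT2/+;Taf10flox/flox, in which Taf10 is deleted, so all 4 groups carry floxed alleles and a 4-OHT-responsive Cre at the Rosa26 locus. Whether a line is a single clone is not stated in the labels. Taf7 and Taf10 encode subunits of TFIID, the factor that brings TBP to promoters of RNA polymerase II, and their own binding and level were not analysed here. Each group had 2 TBP libraries and 1 IgG control library, and 1 deposited list of TBP peak summits, so no difference between groups had a replicate check and no test was made. The lists held 1379 summits in RT7 4-OHT, 2666 in RT7 EtOH, 2188 in RT10 4-OHT and 3102 in RT10 EtOH, and read depth per library is unknown. The score of a summit is the authors' −log10 q-value of TBP over IgG, used here to place a summit within its own list, and its percentile is its place in that list counted from the lowest score, with ties at their mean place.

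Most snRNA genes are transcribed by RNA polymerase II from promoters that carry a proximal sequence element and a distal element in place of a TATA box. The proximal element is bound by the SNAP complex (SNAPc) and the distal element by Oct-1 (Pou2f1) and Zfp143, and TBP is recruited alongside SNAPc. U6 and a few other small RNAs use the same proximal element with a TATA box added, and are made by RNA polymerase III. The Integrator complex cuts the nascent snRNA at its 3′ end.

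One gene of the set could be shown as sequence, because it lies inside the RefSeq promoter window of a neighbouring gene. Rnu7 (chr6:124741225-124741286) falls within the 300 bases around the start of Grcc10, a protein-coding gene, and RefSeq gives that window on the minus strand (chr6:124741020-124741319). The 11 letters of the U7 Sm site, where the ring of Sm and Lsm proteins assembles on the RNA, occurred once in the gene on that strand and not on the other, which places Rnu7 on the minus strand, as Grcc10 is. The gene is shown first with the Sm site in capitals, at bases 21 to 31, then with the arms of its 3′ hairpin in capitals, and last within the window, where the capitals mark Rnu7. All are written 5′ to 3′ and as DNA.
Rnu7, Sm site: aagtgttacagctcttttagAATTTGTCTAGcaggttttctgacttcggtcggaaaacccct
Rnu7, hairpin: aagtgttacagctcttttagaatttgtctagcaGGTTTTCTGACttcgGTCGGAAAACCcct
Grcc10 window: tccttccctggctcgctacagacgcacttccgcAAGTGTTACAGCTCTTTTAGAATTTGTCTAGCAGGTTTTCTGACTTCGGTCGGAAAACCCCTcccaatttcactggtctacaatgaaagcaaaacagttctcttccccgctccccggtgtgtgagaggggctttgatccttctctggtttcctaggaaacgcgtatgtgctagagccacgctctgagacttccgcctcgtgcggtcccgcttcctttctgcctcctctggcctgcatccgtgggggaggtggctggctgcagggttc

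The hairpin arms paired over 11 bases, with 1 G-T pair, around a loop of 4 bases. The stretch before the Sm site is the part of U7 that pairs with histone pre-mRNA. The window holds 33 bases upstream of Rnu7, so the usual places of the proximal and distal elements of the gene lie outside it. Between the 3′ end of Rnu7 and the start of Grcc10 lie 155 bases. On neither strand did the window hold the octamer ATGCAAAT with up to 1 mismatch, the TATA box TATAAA, the Zfp143 site part ACTACAA or the proximal element with up to 3 mismatches. Of all 32851 RefSeq promoter windows of that length, 18.6% held the octamer with that tolerance, 13.6% the TATA box, 3.24% the Zfp143 part, and 43.5% the proximal element with that tolerance.

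TBP summits lay within 500 bp of either end of 6 of the 7 genes in every list, the exception being Rnu1b1 in all of them. Over all annotated genes the share with such a summit was 1.92% in RT7 4-OHT, 3.29% in RT7 EtOH, 2.53% in RT10 4-OHT and 3.67% in RT10 EtOH. As the genes were picked from these same lists, their count is a description and nothing is read from its distance to those shares. The 6 genes had 33 summits in the 4 lists, with nearer ends 1 to 440 bp away. The summit closest outside the window lay 792 bp from Rnu5g in RT10 4-OHT, with a score of 2.11.

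**Figure D1:**
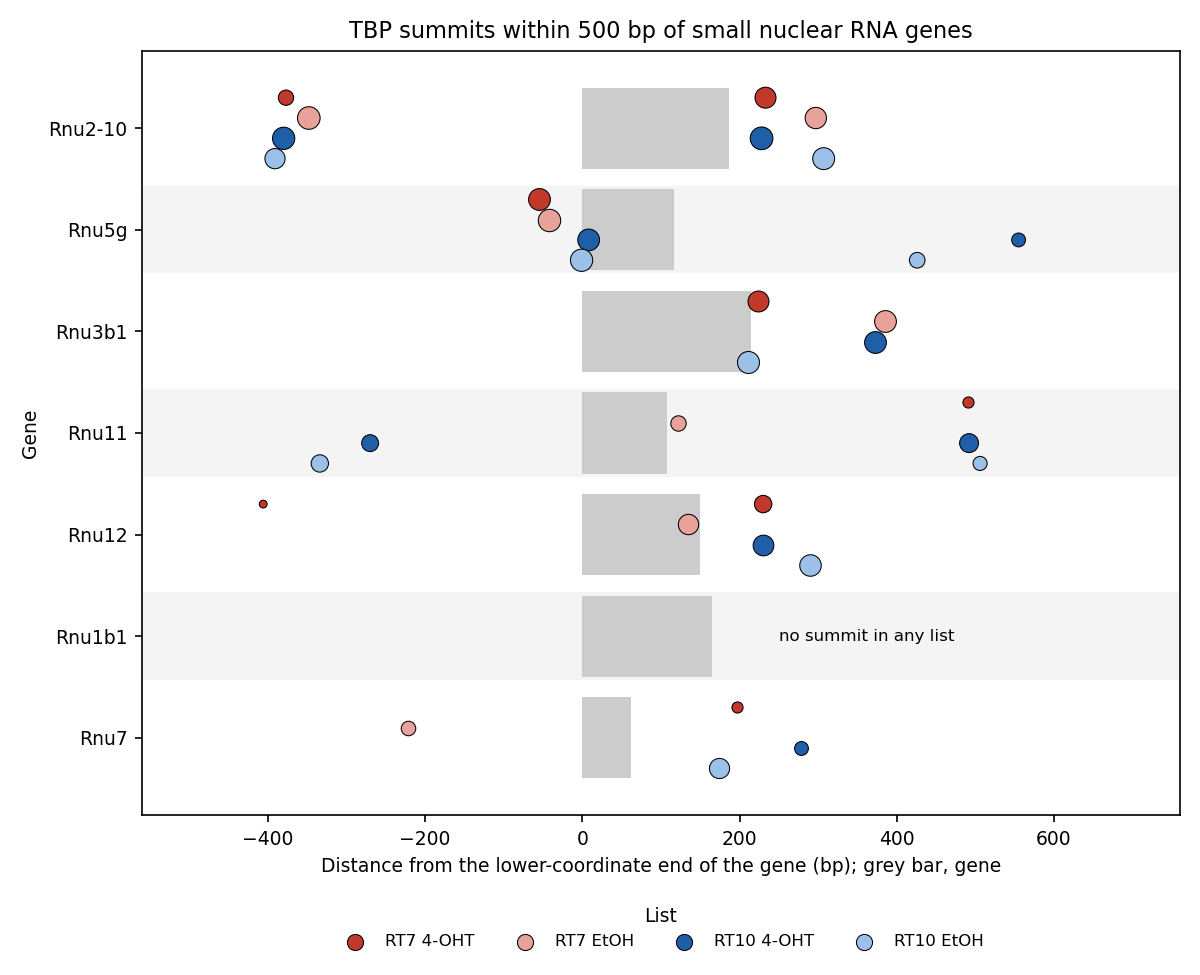
TBP summits around the 7 genes, with distance from the lower-coordinate end of each gene in bp on the x axis, the gene as a grey bar and a row of points for each list, larger where the summit stands at a higher percentile of its list. Rnu2-10 has a summit on either side in every list, the highest summits of Rnu5g lie within 55 bp of its lower end, and Rnu1b1 has none.

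Rnu2-10 (chr11:101658238-101658424), the U2 gene, stood highest of the 7 in RT10 4-OHT and in RT7 EtOH. Its highest summit scored 12.7 in RT7 4-OHT, rank 260 of 1379, against 35.8 in RT7 EtOH, rank 108 of 2666. In RT10 it scored 41.1 in 4-OHT, rank 71 of 2188, against 21.1 in EtOH, rank 325 of 3102. U2 RNA pairs with the branch point of introns. All 4 lists held a pair of summits at this gene, 1 on each side and none inside. The lower one lay 377 and 348 bp below the gene in RT7 4-OHT and EtOH, and 380 and 391 bp below it in RT10 4-OHT and EtOH. The upper one lay 47 and 111 bp above the gene in RT7 4-OHT and EtOH, and 42 and 121 bp above it in RT10 4-OHT and EtOH. The members of the pair were thus 610, 645, 608 and 698 bp apart, in the same order of lists. The upper summit had the higher score in 3 lists, with 12.7 against 4.37 for the lower one in RT7 4-OHT, 41.1 against 27 in RT10 4-OHT and 21.1 against 11.3 in RT10 EtOH. In RT7 EtOH the order was the other way, with 16.1 above the gene and 35.8 below it.

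Rnu5g (chr9:65201726-65201841), the U5 gene, had its summit at the most constant place of the 6 bound genes relative to its ends, within a span of 63 bp over the 4 lists. U5 RNA aligns the exons for joining. The highest summit scored 17.7 in RT7 4-OHT and 29.4 in RT7 EtOH, and 19.1 in RT10 4-OHT and 27.4 in RT10 EtOH. Their percentiles ran from 88 to 94.3, so all 4 lay well above the middle of their lists. The summit lay 55 bp below the lower end of the gene in RT7 4-OHT and 42 bp below it in RT7 EtOH, 8 bp inside it in RT10 4-OHT and 1 bp below it in RT10 EtOH. Both RT10 lists had a further, weaker summit above the gene, with scores of 3.68 in 4-OHT and 4.93 in EtOH. The gene lies within the long noncoding RNA gene Gm40527, whose ends are outside the window.

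Rnu3b1 (chr11:87443237-87443451), a U3 gene, had a single summit in each list, always at its upper end. The score was 12.3 in RT7 4-OHT and 19.4 in RT7 EtOH, and 19.9 in RT10 4-OHT and 22.6 in RT10 EtOH, at percentiles of 80.8 to 90.5. The summit lay 10 bp above the gene in RT7 4-OHT, against 171 bp above it in RT7 EtOH. In RT10 it lay 158 bp above the gene in 4-OHT, against 3 bp inside its upper end in EtOH. The positions therefore fell near 2 places, and the treatment with the nearer one differed between the lines. Rnu3b1 lies within Tex14, and the noncoding gene LOC115487798 ends within 500 bp of all 4 summits, so they cannot be assigned to Rnu3b1 alone.

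Rnu12 (chr15:83149645-83149794), the U12 gene, stood in the middle of the set. Its highest summit scored 5.76 in RT7 4-OHT and 11.5 in RT7 EtOH, and 12.3 in RT10 4-OHT and 17.7 in RT10 EtOH. Both 4-OHT summits were at the same base, 81 bp above the gene, while those of EtOH lay 15 bp inside its upper end in RT7 and 140 bp above it in RT10. RT7 4-OHT also had a weak summit of score 1.53, at 406 bp below the gene. The end of Poldip3, a protein-coding gene, is 267 bp away, and it lay within 500 bp of a summit of this gene in 3 lists, all but RT10 EtOH.

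Rnu11 (chr4:132270079-132270186), the U11 gene, had summits at lower ranks. U11 takes the place of U1 in the minor spliceosome. Its highest summit scored 2.78 in RT7 4-OHT, at percentile 15.1, and 4.68 in RT7 EtOH, at percentile 38.7. In RT10 it scored 8.24 in 4-OHT, at percentile 64.1, and 6.4 in EtOH, at percentile 52.1. The place of the highest summit varied over 826 bp, the widest range of the 6 genes. It lay 384 bp above the gene in RT7 4-OHT and 15 bp above it in RT7 EtOH, 385 bp above it in RT10 4-OHT and 334 bp below it in RT10 EtOH. Summits near the first of these places, 384 to 399 bp above the gene, were present in 3 lists, RT7 EtOH being the one without, and both RT10 lists also had one 270 to 334 bp below the gene.

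Rnu7 had 1 summit in each list and the lowest scores of the 6 genes in RT7 EtOH and RT10 4-OHT. They were 2.78 in RT7 4-OHT and 4.12 in RT7 EtOH, and 3.68 in RT10 4-OHT and 11.3 in RT10 EtOH, at percentiles of 15.1, 33.2, 29.1 and 74.4. In 3 lists the summit lay upstream of the Rnu7 start, by 136 bp in RT7 4-OHT, 217 bp in RT10 4-OHT and 113 bp in RT10 EtOH. These summits were 330 to 434 bp upstream of the Grcc10 start. The RT7 EtOH summit lay on the other side, 222 bp past the 3′ end of Rnu7 and 66 bp inside Grcc10. All 4 positions fell outside the printed window, and as the ends of both genes are within 500 bp of each, Rnu7 and Grcc10 cannot be told apart as the bound gene.

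**Figure D2:**
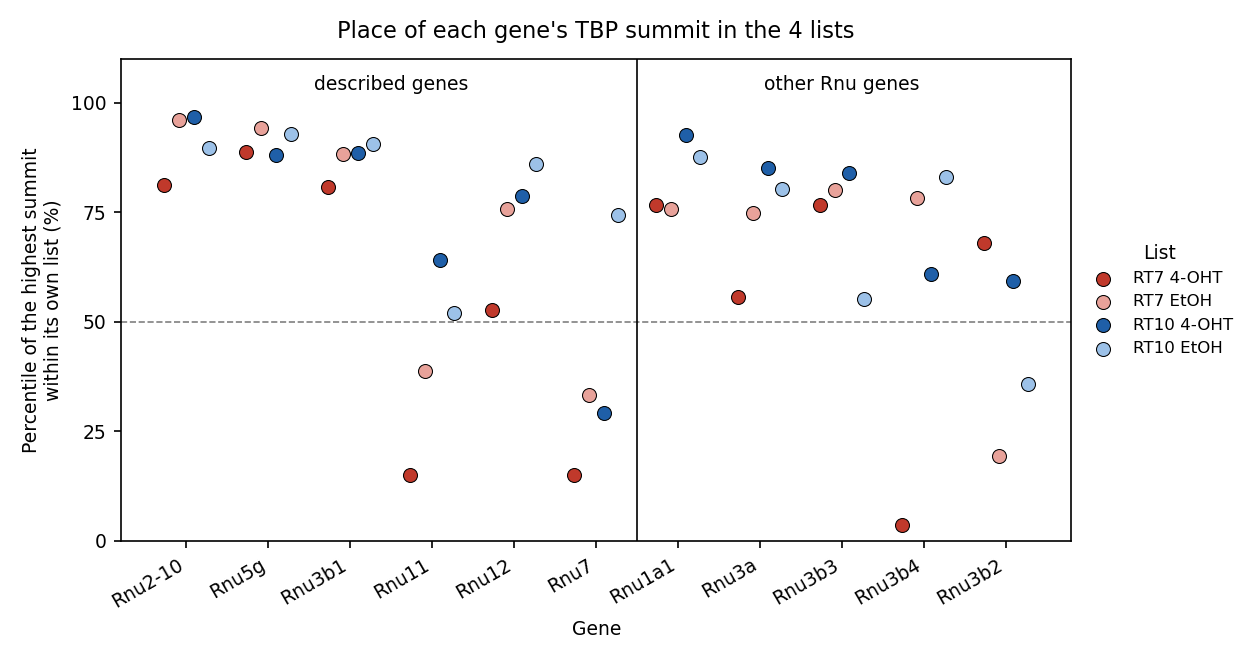
Percentile of the highest TBP summit within 500 bp, in percent of its own list on the y axis, for the 6 bound genes and for the 5 other bound Rnu genes, with a point for each list. Rnu2-10, Rnu5g and Rnu3b1 stay above the percentile of 80 in every list, and Rnu11 and Rnu7 reach down to 15.1. The dashed line marks the median of a list.

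Over the 6 bound genes the median percentile was 66.8 in RT7 4-OHT and 82.1 in RT7 EtOH, and 83.4 in RT10 4-OHT and 87.8 in RT10 EtOH. By construction the median over all summits of a list is 50. The number of genes above it was 4 in RT7 4-OHT, 4 in RT7 EtOH, 5 in RT10 4-OHT and 6 in RT10 EtOH. Rnu11 and Rnu7 made up the rest. The list median covers every summit, whereas each gene was placed by its highest summit near an end, so the measures are unlike. Ranked among gene-end summits only, the median percentile of the 6 genes was lower in every list. It was 60.2 in RT7 4-OHT and 75.8 in RT7 EtOH, and 75.8 in RT10 4-OHT and 82.5 in RT10 EtOH. The same count over other bound genes is not given here. The lists differ in length, so these places do not measure a change in binding between treatments.

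Among the genes outside the lists used here, 674 had a summit in all 4 lists, and those placed most like the median of the 6 genes were compared by the largest difference in percentile over the 4 lists. Arl2 differed by at most 3.84 points, the tRNA gene n-TRcct2 by 4.01, Dusp1, which encodes a phosphatase of MAP kinases, by 5.61, and Gnb2, a G protein subunit, by 6.25. Plekha4 and Ppp1r15a, whose percentiles were identical in each list, tied for the next place, also with 6.25. They are neighbours on chromosome 7, with ends at 45526330 and 45526268, so the same summit can count for both.

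In every list most summits lay beside the genes rather than in them. The 6 genes are 62 to 215 bp long and the window reaches 500 bp past either end. Most of the searched span thus lies outside the genes, and nothing is read from the small number inside. Of the 33 summits of the 6 genes, 3 lay inside a gene, 11 below its lower end and 19 above its upper end. The 3 inside were those of Rnu5g in RT10 4-OHT, Rnu3b1 in RT10 EtOH and Rnu12 in RT7 EtOH, all within 15 bp of an end. As RefSeq gives no strand for these genes in the table used, lower and upper do not stand for upstream and downstream except at Rnu7. Summits on both sides of a gene were present at 2 genes in RT7 4-OHT and 1 in RT7 EtOH, and at 2 in RT10 4-OHT and 3 in RT10 EtOH. The genes were Rnu2-10 in all lists, Rnu11 in both RT10 lists, Rnu12 in RT7 4-OHT and Rnu5g in RT10 EtOH. At tRNA genes, which RNA polymerase III transcribes, 11.5%, 11.8%, 16% and 10.9% of the bound genes had summits on both sides in RT7 4-OHT, RT7 EtOH, RT10 4-OHT and RT10 EtOH, and at most 1.63% had their highest summit inside the gene. At the 9 to 12 bound small nucleolar RNA genes, 0%, 0%, 0% and 9.09% had summits on both sides in that order. Their highest summit was inside in 11.1%, 8.33%, 9.09% and 18.2%. For the 6 genes it was inside in 0% in RT7 4-OHT and 16.7% in each other list. Of the 5 other bound Rnu genes, 1, 2, 1 and 3 had summits on both sides in the same order of lists, or 20%, 40%, 20% and 60%. Of the bound snRNA genes without an Rnu symbol, 11.1%, 43.5%, 17.4% and 16% had them. The shares of the 6 genes, 33.3%, 16.7%, 33.3% and 50%, were below those of both these sets in RT7 EtOH and above both in the 4-OHT lists. Neighbouring genes can supply a flanking summit, so the shares are a description.

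All 6 genes with a summit in an EtOH list also had one in the 4-OHT list of the same line. Of all genes with a summit in EtOH, 51.4% also had one in 4-OHT in RT7, and 56.6% in RT10. The 6 genes were chosen with these lists known, and those shares are not matched for score. They are therefore context, and nothing is read from the difference.

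Next, the place of TBP was compared between 4-OHT and EtOH at each gene. In RT7, 4 of the 6 genes had a 4-OHT summit within 250 bp of their highest EtOH summit, and in RT10 all 6 had one. Of all EtOH summits, 38.7% had such a partner in RT7 (exact 95% binomial interval 36.9 to 40.6, counting error only) and 48.1% in RT10 (46.3 to 49.9). Among EtOH summits at gene ends that scored at least as high as the lowest of the 6 genes, the shares were 57.1% in RT7 and 73% in RT10. The pattern was known when the genes were chosen, so these shares are context and not a test. With partners counted up to 500 bp away, all 6 genes had one in both lines, against 62.2% in RT7 and 78.7% in RT10 of the gene-end summits in that score range.

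The distances themselves ranged widely. At Rnu5g the 4-OHT and EtOH summits were 13 bp apart in RT7 and 9 bp in RT10, at Rnu12 they were 96 and 59 bp apart, and at Rnu2-10 29 and 79 bp. The distance is to the nearest 4-OHT summit, which was not always the highest. At Rnu2-10 in RT7 it was the weaker one, with a score of 4.37, and the highest 4-OHT summit lay on the other side of the gene, 581 bp from the highest EtOH summit. At Rnu11 in RT10 it was likewise the weaker one, with a score of 5.49, and the highest summits lay 826 bp apart on opposite sides. At Rnu3b1 they were 161 bp apart in both lines. Rnu11 and Rnu7, with the lowest EtOH scores in both lines, had distances of 369 and 419 bp in RT7 and of 64 and 104 bp in RT10. The median over the 6 genes was 128.5 bp in RT7 and 71.5 bp in RT10, against 64 and 62.5 bp for all gene-end EtOH summits with a 4-OHT summit within 500 bp.

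**Figure D3:**
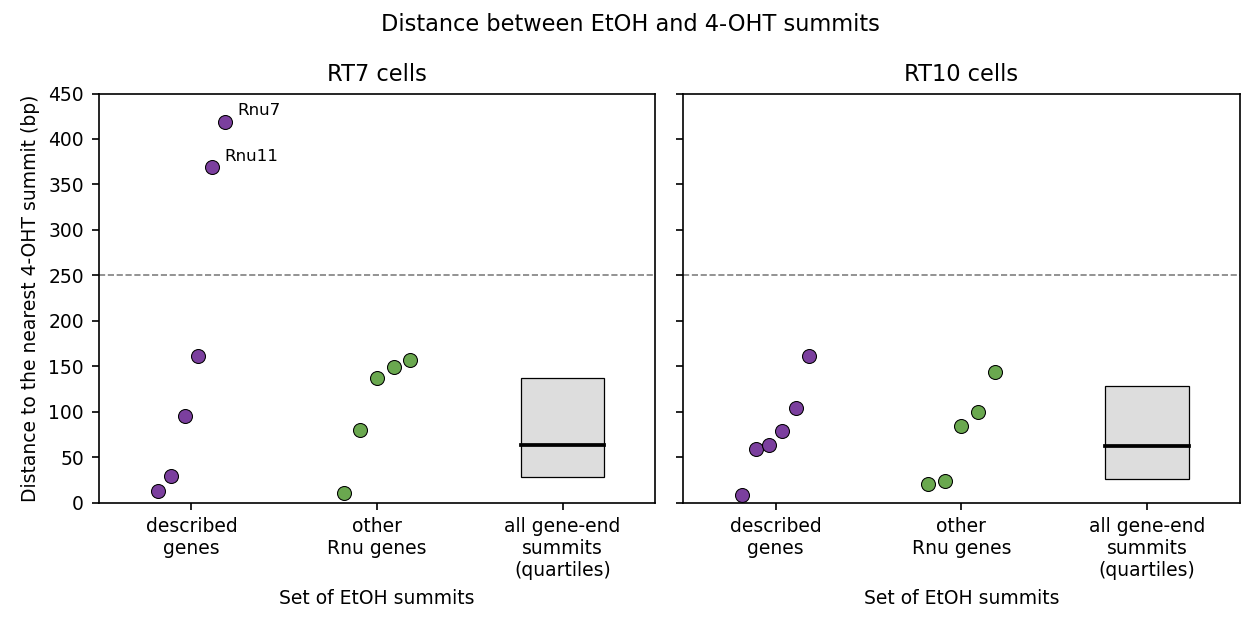
Distance in bp from the highest EtOH summit of each gene to the nearest 4-OHT summit, in RT7 and RT10 cells, for the 6 bound genes, the 5 other bound Rnu genes and, as a box from lower to upper quartile with the median as a bar, all gene-end EtOH summits with a 4-OHT summit within 500 bp. Rnu11 and Rnu7 lie above the dashed line of 250 bp in RT7, and in RT10 all 11 genes lie below it.

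Between the lines, the highest summits of the 4-OHT lists lay 0 bp apart at Rnu12, 1 bp at Rnu11, 5 bp at Rnu2-10, 63 bp at Rnu5g, 81 bp at Rnu7 and 148 bp at Rnu3b1. Those of the EtOH lists lay 155, 456, 655, 41, 396 and 174 bp apart at the same genes in that order. The 4-OHT summits of RT7 and RT10 were the closer ones at 5 genes, with Rnu5g as the exception. At 3 of these 5, Rnu2-10, Rnu11 and Rnu7, the highest EtOH summits lay on opposite sides of the gene in RT7 and RT10. No gene of the set showed this between the 4-OHT lists. The same comparison between the lines was not made over all annotated genes, and a difference between the treatments was not tested. Both counts therefore only describe the genes of the set. Summits on the same side of Rnu2-10 were close under both treatments. Those below the gene lay 3 bp apart between the 4-OHT lists and 43 bp between the EtOH lists, and those above it 5 and 10 bp.

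Rnu1b1 (chr3:96359953-96360117), a U1 gene, had no summit nearby in any list. U1 RNA recognises the 5′ splice site. The nearest summit was 41852 bp away in RT7 4-OHT, 39275 bp in RT7 EtOH, 39229 bp in RT10 4-OHT and 39260 bp in RT10 EtOH, each of them at a tRNA gene. The other U1 genes of this chromosome, Rnu1b2 and Rnu1b6, lacked a summit as well, whereas the U1 gene Rnu1a1 on chromosome 11 had one in all 4 lists. That no peak was called there does not show that TBP was absent. U1 and U3 genes occur as several copies, and the sources used here do not say how reads matching more than 1 copy were treated, so the values of Rnu1b1 and Rnu3b1 are uncertain in that respect. The same limit may touch Rnu2-10 and Rnu5g, which have annotated snRNA genes of similar or the same length nearby, and the likeness of their sequences was not tested.

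Of the 7 other Rnu genes of RNA polymerase II in the annotation, 5 were bound in all 4 lists and Rnu1b2 and Rnu1b6 in none. Their median percentiles were 68.1 in RT7 4-OHT and 75.8 in RT7 EtOH, and 84 in RT10 4-OHT and 80.4 in RT10 EtOH, beside 66.8, 82.1, 83.4 and 87.8 for the 6 genes. Rnu1a1 scored 10.8 in RT7 4-OHT and 11.5 in RT7 EtOH, and 26.8 in RT10 4-OHT and 19.6 in RT10 EtOH. Rnu3a, a U3 gene on chromosome 10, scored 6.21, 11.5, 16.1 and 14.0 in the same order of lists. Rnu3b4 ranged from percentile 3.52 in RT7 4-OHT to percentile 83 in RT10 EtOH. In all 20 cases the highest summit of these 5 genes lay above the upper end of the gene, by 4 to 280 bp.

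Several of the genes sit among other annotated snRNA genes. Of all 1004 annotated snRNA genes, 39 had a summit in at least 1 list and 25 in all 4. Over all 49997 annotated genes these counts were 2365 and 693. All 4 snRNA genes within 100 kb of Rnu2-10 had a summit in at least 1 list, LOC115487916 being bound in all 4 with scores of 5.52 in RT7 4-OHT, 17.1 in RT7 EtOH, 8.24 in RT10 4-OHT and 21.9 in RT10 EtOH. Gm24950 and Gm23971 were each bound in 3 lists. Gm26316 was bound in the EtOH lists only, with low scores of 2.99 in RT7 and 4.75 in RT10. Gm25313, 5039 bp from Rnu5g and of the same length of 116 bp, was also bound in all 4, with scores of 10.8 and 15.1 in RT7 4-OHT and EtOH and of 15.7 and 20.5 in RT10 4-OHT and EtOH. Around Rnu3b1, 5 of 6 such genes were bound in every list. They were Rnu1a1, Gm22068, Rnu3b3, Rnu3b4 and Rnu3b2, and Gm23137, only 1023 bp from Rnu3b1, was not. Around Rnu1b1 none of 5 was bound in any list. No annotated snRNA gene lies within 100 kb of Rnu11, Rnu12 or Rnu7.

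**Figure D4:**
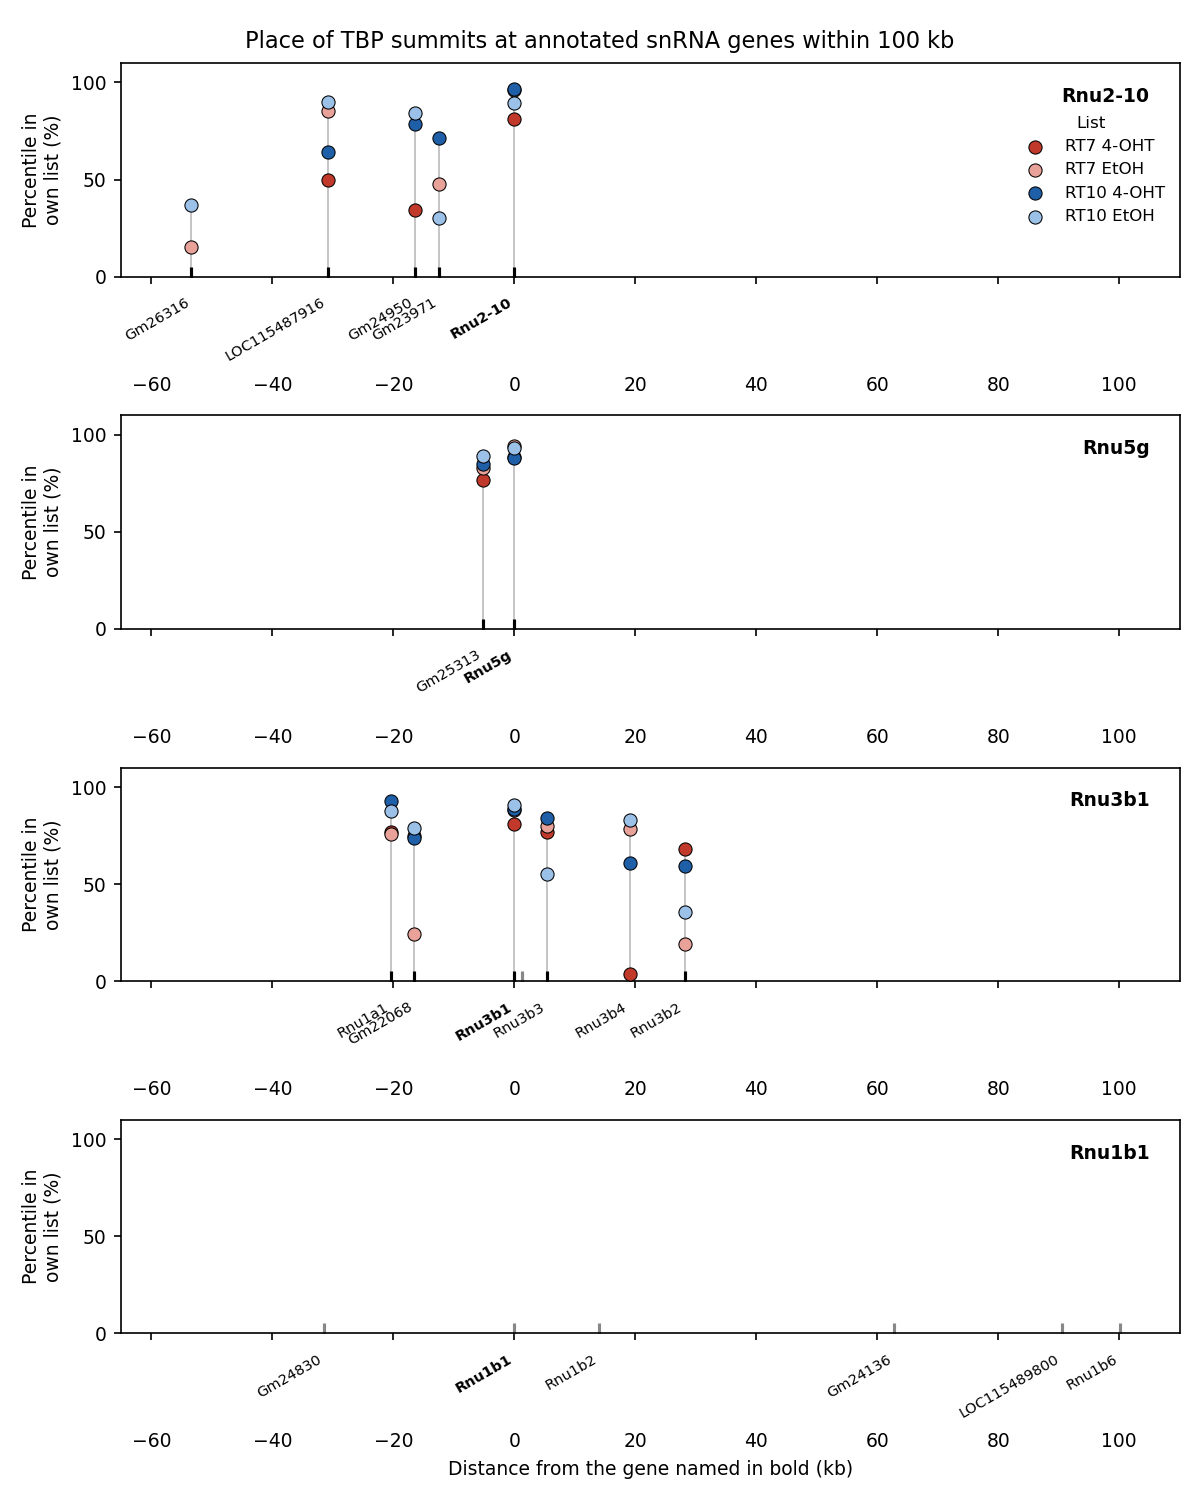
Percentile in its own list, in percent, of the highest TBP summit within 500 bp of each annotated snRNA gene within 100 kb of Rnu2-10, Rnu5g, Rnu3b1 and Rnu1b1, against distance from that gene in kb. Ticks at the base mark genes, black where any list has a summit and grey where none has. Points fill the first 3 panels, and the panel of Rnu1b1 holds 6 genes and no point.

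For the genes that make, cut and package these RNAs, lists drawn up by symbol, with earlier results known, held 73 annotated members. One of them, Usp1, was listed with the little elongation complex by mistake and had no summit in any list, so the counts are given over the other 72. Of these, 8 had a TBP summit in RT7 4-OHT and 16 in RT7 EtOH, and 8 in RT10 4-OHT and 13 in RT10 EtOH, or 11.1%, 22.2%, 11.1% and 18.1%. The shares over all protein-coding genes were 2.73%, 5.31%, 3.85% and 5.95% in the same order. Among promoter factors, Sp1 had a summit in all 4 lists, and Zfp143, the activator at distal elements, had one in both EtOH lists (12.6 in RT7 and 19.9 in RT10) and in neither 4-OHT list. Of all genes with a summit in EtOH, only 51.4% in RT7 and 56.6% in RT10 also had one in the shorter 4-OHT list. Absences from a 4-OHT list, here and among the pathway genes below, were therefore frequent. None of the 5 SNAPc subunit genes Snapc1 to Snapc5 nor Pou2f1 had one in any list.

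Of 14 Integrator subunit genes, 1 had a summit in RT7 4-OHT and 4 in RT7 EtOH, and 3 in each RT10 list. Ints6 was the member present in every list, with scores of 3.10 in RT7 4-OHT and 20.6 in RT7 EtOH, and of 4.42 in RT10 4-OHT and 23.5 in RT10 EtOH. Of 5 genes for the little elongation complex, which acts on snRNA genes of RNA polymerase II, 1 had a summit in RT7 4-OHT and 2 in RT7 EtOH, and 0 in RT10 4-OHT and 1 in RT10 EtOH. Ell, an elongation factor, was bound in every list but RT10 4-OHT, and its summits lay also at Gm51534. Among 15 export and assembly genes, Gemin6, part of the SMN complex that loads Sm proteins, and Prmt5, a methyltransferase of Sm proteins, were bound in all 4 lists. The Prmt5 summits also lay at the tRNA gene n-TRacg6, and those of Gemin6 at Srsf7.

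Of 30 genes for proteins of the particles themselves, 3 had a summit in RT7 4-OHT and 6 in RT7 EtOH, and 2 in RT10 4-OHT and 5 in RT10 EtOH. Snrpa, a protein of the U1 particle, and Snrpb, a core Sm protein, were bound in all 4, the summits of Snrpa lying also at BC024978. Slbp, which works with U7 on histone mRNAs, scored 9.15 in RT7 4-OHT and 19.4 in RT7 EtOH, and had no summit in RT10 4-OHT against 24.8 in RT10 EtOH.

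Small RNA genes of RNA polymerase III were set beside the 7 genes, as they also use TBP. Of 9 in the annotation, 3 were bound in RT7 4-OHT and 4 in RT7 EtOH, and 6 in RT10 4-OHT and 5 in RT10 EtOH. The shares over all annotated genes were 1.92%, 3.29%, 2.53% and 3.67% in the same order. Rmrp and Rny1 were bound in all 4 lists, and Rnu6, a U6 gene, Rn7sk and Vaultrc5 in none. The family of annotated snRNA genes without an Rnu symbol is not given, so nothing is said here of any other U6 genes. The Rmrp summits also lay at Ccdc107, and those of Rpph1 at Parp2. Rny1 scored 21.3 in RT7 4-OHT and 28.8 in RT7 EtOH, and 16.9 in RT10 4-OHT and 15.6 in RT10 EtOH. The highest summits of Rnu2-10, Rnu5g and Rnu3b1 scored 12.3 to 17.7 in RT7 4-OHT and 19.4 to 35.8 in RT7 EtOH, and 19.1 to 41.1 in RT10 4-OHT and 21.1 to 27.4 in RT10 EtOH. Rny1 thus stood above these 3 genes in RT7 4-OHT, among them in RT7 EtOH and below them in both RT10 lists. Rny3 went another way in RT10. It scored 14.1 in RT7 4-OHT and 33.1 in RT10 4-OHT, among the 3 genes, and 30 in RT10 EtOH, above them. In RT7 EtOH it had no summit. The remaining bound genes of this RNA polymerase III set scored below the 3 genes in every list.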

How the data were processed

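TBP CUT&RUN libraries of mouse ES cells were made with a protein A-MNase step, per the labels. The submitters' processing notes name cutadapt 4.0, Bowtie2 2.4.4, SAMtools 1.15.1, bedtools, deepTools, MACS2 2.2.7.1 and mm10, with no roles. The authors deposited, for each peak summit of TBP called against IgG, a score that is read here as a −log10 q-value. The lowest score, 1.30, is close to a q of 0.05, and neither the threshold nor whether the 2 TBP libraries were pooled is given in the sources used here. The titles of 2 IgG libraries differ from their treatment label, and the title was used.

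Letters for the Sm site and the snRNA promoter elements were typed in from general knowledge and searched on both strands. The 7 genes, the other lists and all comparisons were chosen with earlier results of these data known. Gene ends came from RefSeq (GRCm38.p6, 49997 genes) without strand, so the planned distance from the gene start became that from the nearer end. Genes with a summit no more than 500 bp from an end are called bound, and the highest-scoring one was used. A summit was kept when the other list had one within 250 bp. Named genes were the 7 members, all other Rnu genes, bound members of the pathway lists, neighbours within 500 bp of a member's summit and the 5 genes placed most like the members, with ties. Annotated snRNA neighbours within 100 kb were added after values were seen. No test was run. Python 3.11.15, NumPy 2.4.6, pandas 2.3.3, SciPy 1.17.1 and matplotlib 3.10.9 were used, and the matching was tested on simulated data.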

Additional observations from a re-analysis of the deposited data

How the results depend on the processing

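Of 50 alternative values, 35 stayed within 1.5 times the count, within the counting interval of the percentile or, for distances, the same, and 15 moved. That interval counts all summits of a list, so it does not measure the uncertainty of a median over 6 genes. The tolerance for counts also hides some drops. With all lists shortened to the shortest, 6 of the 7 genes were bound in RT7 4-OHT, 4 in RT7 EtOH, 5 in RT10 4-OHT and 5 in RT10 EtOH. The count of 6 in every list thus held only at full list length. With scores of at least 10, 3 of the 7 genes were bound in RT7 4-OHT and 2 were kept in RT7. Within 100 bp of a gene end, 3 were bound in RT7 EtOH, 3 in RT10 4-OHT and 2 in RT10 EtOH. Ranked among gene-end summits, the median percentile was 60.2 in RT7 4-OHT and 75.8 in RT7 EtOH, and 75.8 in RT10 4-OHT and 82.5 in RT10 EtOH. With the summit nearest to an end it was 80.1 in RT7 EtOH, at a median distance of 76.5 bp. Within 250 bp of an end the median distance was 55 bp in RT7 4-OHT and 76.5 bp in RT7 EtOH, and 81 bp in RT10 4-OHT and 113 bp in RT10 EtOH, against 68, 106.5, 119.5 and 117 bp. The cause of these moves was not tested. The gene-start alternative was not run, as the table gives no strand. No paired analysis was possible because the lists carry no replicate number and no test was made, and no replicate could be left out. Read depth is unknown, so a missing summit sets no limit on binding.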

Other observations

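Annotated snRNA genes without an Rnu symbol numbered 989, and 28 of them had a TBP summit within 500 bp in at least 1 list and 14 in all 4. Of all 49997 annotated genes, 2365 had one in at least 1 list and 693 in all 4. As a share, binding in all 4 lists was thus about as frequent in both sets. Binding in at least 1 list was less frequent among these snRNA genes. Bound genes were unevenly spread over gene lengths. Of the 15 such genes of 191 bp, 10 had a summit in at least 1 list, and of the 8 of 116 bp, the length of Rnu5g, 6 had one. Of the 384 of 107 bp, 6 had one, and of the 33 of 164 bp, 2 had one. The lengths were set apart after their values were seen, and the family of each gene is not annotated in the table.

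The genes of 191 bp included 4 on chromosome 1 between 72226240 and 72255198, of which Gm25360 was bound in all 4 lists, with scores of 5.52 in RT7 4-OHT and 5.08 in RT7 EtOH, and of 5.95 in RT10 4-OHT and 19.0 in RT10 EtOH. Among those of 116 bp, Gm25099 and Gm23287 on chromosome 4 were bound in all 4 lists. The highest scores were those of a pair of genes of 107 bp on chromosome 10. Gm24019 scored 71 in RT7 4-OHT and 135 in RT7 EtOH, and 119 in RT10 4-OHT and 122 in RT10 EtOH, and it shares its window with the protein-coding gene Med16. Gm26243 scored 76.5 in RT7 4-OHT and 68.9 in RT7 EtOH, and 58.4 in RT10 4-OHT and 101 in RT10 EtOH.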
